A study of Mus musculus with 6 samples.

Results

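The β-crystallins of the mouse lens comprise 6 genes, the acidic members Cryba1, Cryba2 and Cryba4 and the basic members Crybb1, Crybb2 and Crybb3. They were found by gene symbol among the 56940 genes listed in each library, and each symbol matched 1 gene, so that 6 of 6 members were measured. Lens capsules with their attached lens epithelial cells (LECs) were sequenced in a mouse model of cataract surgery. Libraries of the 5 day group came from capsules left in the eye for 5 days after the lens fiber mass had been taken out through an opening in the front of the lens. Libraries of the 0 h group came from capsules of the second eye, harvested directly after the same operation. All mice were C57BL/6 and wildtype, each library pooled 5 capsules, and each time had 3 libraries described as biological replicates. The 0 h group therefore came from mice that had undergone surgery in the first eye 5 days before, and no unoperated mouse is among the samples. Because capsules were pooled, variation between single animals was not measured.

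Crystallins are the most abundant proteins of the lens and give it its transparency and refractive power. The β- and γ-crystallins share an ancestor and are built of compact domains with the Greek key fold. β-crystallins assemble into dimers and larger oligomers, in which acidic and basic chains can pair. The basic chains carry extensions at both ends of the folded core, the acidic chains at the amino end. Their genes are switched on mainly as epithelial cells differentiate into fiber cells, and transcription factors of the Maf family, Pax6, Prox1 and Sox1 are known to act on crystallin promoters. In mouse, Crybb2 expression climbs after birth and its product, βB2, is the most soluble member of the family.

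The 120 bases upstream of each member's annotated start are given here because lens transcription factors are known to act on crystallin genes through elements near the start. They were taken from the RefSeq promoter table of build GRCm38.p6 and are written 5′ to 3′ on the strand of the gene. Capitals mark the TATA element TATAAA and the sequence TGCTGA, which is only a part of a Maf recognition element. They also mark the AP-1 element TGANTCA and the paired heat shock unit GAANNTTC. Each was sought on either strand. The windows lie at chr11:77725294-77725413 on the minus strand for Cryba1, chr1:74893144-74893263 on the minus strand for Cryba2, chr5:112252519-112252638 on the minus strand for Cryba4, chr5:112255700-112255819 on the plus strand for Crybb1, chr5:113070118-113070237 on the minus strand for Crybb2 and chr5:113081585-113081704 on the minus strand for Crybb3.
Cryba1: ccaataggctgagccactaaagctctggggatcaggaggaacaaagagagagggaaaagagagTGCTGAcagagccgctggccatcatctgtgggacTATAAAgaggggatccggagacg
Cryba2: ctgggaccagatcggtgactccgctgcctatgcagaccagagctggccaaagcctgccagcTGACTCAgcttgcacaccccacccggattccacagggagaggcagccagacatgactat
Cryba4: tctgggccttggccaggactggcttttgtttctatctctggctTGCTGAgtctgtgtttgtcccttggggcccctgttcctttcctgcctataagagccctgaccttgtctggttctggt
Crybb1: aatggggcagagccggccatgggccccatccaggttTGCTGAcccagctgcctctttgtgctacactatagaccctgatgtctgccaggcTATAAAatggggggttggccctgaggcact
Crybb2: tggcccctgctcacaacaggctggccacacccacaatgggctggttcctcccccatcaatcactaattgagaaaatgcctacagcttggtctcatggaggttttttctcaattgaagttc
Crybb3: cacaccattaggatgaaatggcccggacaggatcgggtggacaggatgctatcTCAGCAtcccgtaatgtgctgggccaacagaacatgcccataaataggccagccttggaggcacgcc

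TGCTGA occurred in the 120 base windows of 4 of the 6 members, Cryba1, Cryba4, Crybb1 and Crybb3, against 8.2% of the 32851 promoters in the table. It lay 57 bases upstream of the start in Cryba1, 77 in Cryba4, 84 in Crybb1 and, on the other strand, 67 in Crybb3, counted to its first base. Within the full 250 upstream bases 5 of 6 members held it, against 16.1% of all promoters, and Cryba4 held 3 copies. TATAAA was found in 2 of 6 members within 120 bases, at 23 bases upstream in Cryba1 and 30 in Crybb1, against 6.3% of all promoters. TGANTCA was found in 1 member, Cryba2, against 3.4%, and GAANNTTC in 0 members, against 3.2%. The SOX core ACAAT, left in lower case because of its brevity, occurred within 120 bases in Crybb2 alone, against 14.1% of promoters. These matches describe letters, not bound sites, and any relation of them to the change at 5 days was not tested. The Crybb2 window precedes the more upstream of its annotated starts, and the start used in these cells was not determined.

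All 6 β-crystallin transcripts fell by 5 days. Levels are given as CPM, each gene's counts relative to the size of its library, scaled between libraries by the trimmed mean of M-values (TMM). Differences are log2 fold changes of 5 days over 0 h from edgeR's quasi-likelihood test, with p adjusted by Benjamini-Hochberg over 14676 tested genes and a threshold of 0.05. Of all tested genes, 22.5% were called lower, and 25.1% were called higher. The falls ranged from 4.96-fold for Crybb3 to 50.2-fold for Cryba4, and 2.72% of all tested genes were called lower by as much as Crybb3 or more.

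Cryba1 (ENSMUSG00000000724) encodes the chains βA1 and βA3, which are made from 1 mRNA by use of different start codons. Its level was 544, 1235 and 155 CPM in the 5 day libraries (replicates 1, 2 and 3), against 6990.2, 8585 and 7455 CPM in the 0 h libraries. Every 5 day library lay below every 0 h library, and replicate 2 was the highest of the 5 day group. The mean was 645 ± 547 CPM at 5 days and 7677 ± 819.9 CPM at 0 h (SD, n = 3 each). Cryba1 fell by 3.57 on the log2 scale (SE 0.54, edgeR adjusted p = 0.000166), which is 11.9-fold lower.

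Cryba2 (ENSMUSG00000006546), the gene of the acidic chain βA2, had 464, 902 and 150.2 CPM at 5 days, against 6093, 7116 and 6005 CPM at 0 h. The groups did not overlap, and replicate 3 at 5 days was again the lowest. Cryba2 fell by 3.66 (SE 0.48, edgeR adjusted p = 5.06e-05), a fall close to that of Cryba1.

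Cryba4 (ENSMUSG00000066975), the gene of βA4, had 27.9, 123 and 6.90 CPM at 5 days, against 2587, 2770.2 and 2566 CPM at 0 h. The 5 day libraries spread 17.8-fold from lowest to highest without reaching the 0 h range, whereas the 0 h libraries were nearly alike. In replicate 3 at 5 days the gene was at 0.261% of its mean 0 h level, and 63 reads were counted. Cryba4 fell by 5.65 (SE 0.75, edgeR adjusted p = 5.74e-05), and 0.211% of all tested genes fell as far or farther. The estimate was the least certain of the 6. It was -7.30 without replicate 2 of the 5 day group, -6.36 with the title's replicate number as a block and -6.59 with limma-voom.

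Crybb1 (ENSMUSG00000029343), the gene of the basic chain βB1, whose long amino-terminal extension is trimmed as the lens ages, had 80.8, 174 and 25.3 CPM at 5 days, against 1819.7, 1895 and 1691 CPM at 0 h. The groups did not overlap. Crybb1 fell by 4.27 (SE 0.50, edgeR adjusted p = 2.21e-05), which is 19.3-fold lower and the second largest fall after Cryba4.

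Crybb2 (ENSMUSG00000042240), the gene of βB2, had 6087, 9700.5 and 2239 CPM at 5 days, against 50716, 58379.8 and 50437 CPM at 0 h. The highest 5 day library was far below the lowest 0 h library. Crybb2 fell by 3.15 (SE 0.41, edgeR adjusted p = 5.06e-05), and even replicate 3 at 5 days still held 20453 reads of it.

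Crybb3 (ENSMUSG00000029352), the gene of βB3, had 797, 887 and 352 CPM at 5 days, against 3364, 3586 and 3142 CPM at 0 h. Replicates 1 and 2 of the 5 day group lay close together here, unlike in the other members. Crybb3 fell by 2.31 (SE 0.27, edgeR adjusted p = 2.20e-05), the smallest fall of the 6, and its 5 day libraries held 23.7%, 26.4% and 10.5% of the mean 0 h level.

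**Figure D1:**
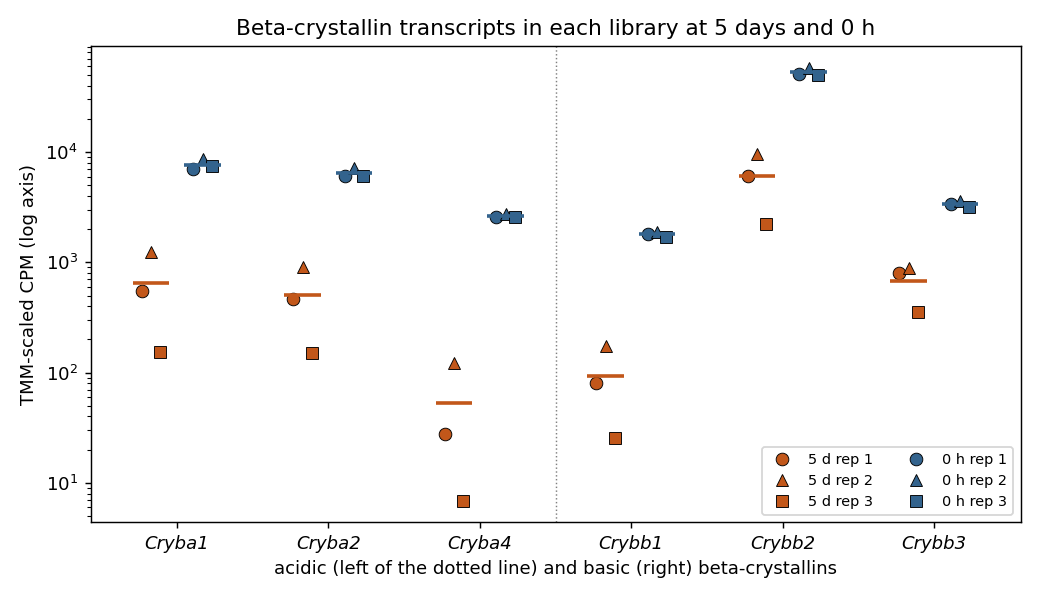
TMM-scaled CPM on a log axis for the 6 β-crystallins, with 1 point per library (5 days left, 0 h right of each gene; marker shape gives the replicate) and a bar at the group mean. For all 6 genes the 5 day points lie below the 0 h points, with replicate 2 highest and replicate 3 lowest at 5 days.

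The counts over the family were 6 of 6 called lower, where 22.5% of all tested genes were called lower, and 6 of 6 with every 5 day library below every 0 h library, where 28.2% of all tested genes had that arrangement. The median log2 fold change was -3.66 over the 3 acidic members and -3.15 over the 3 basic members, against -0.01 over all tested genes. In bulk RNA, fewer cells that express a gene and less of its RNA per cell cannot be told apart.

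The fold changes did not sort by class. Cryba4, which is acidic, and Crybb1, which is basic, fell most, Crybb2 and Crybb3 fell least, and Cryba1 and Cryba2 lay between. Across 15 other settings (other scalings, filters, tools and blocks, and each library left out in turn) Cryba4 and then Crybb1 fell most in 15 of 15, and Crybb2 and then Crybb3 fell least in 15 of 15. The order of all 6 was the same in 12 of 15, and in the other 3 Cryba1 and Cryba2 changed places. Each member was called lower in 15 of 15 settings. In the setting without the low-count filter the members' SEs were 0.12 to 0.15, against 0.27 to 0.75 in the main fit. That setting's calls therefore say little about the spread between libraries. Leaving out replicate 2 of the 5 day group moved 4 members by more than 1.5-fold, to -4.46 for Cryba1, -4.38 for Cryba2, -7.30 for Cryba4 and -5.11 for Crybb1. Crybb2 and Crybb3 were then at -3.67 and -2.55. Leaving out replicate 3 of the 5 day group gave -3.12, -3.24 and -5.13 for Cryba1, Cryba2 and Cryba4 and -3.83, -2.77 and -2.01 for Crybb1, Crybb2 and Crybb3.

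**Figure D2:**
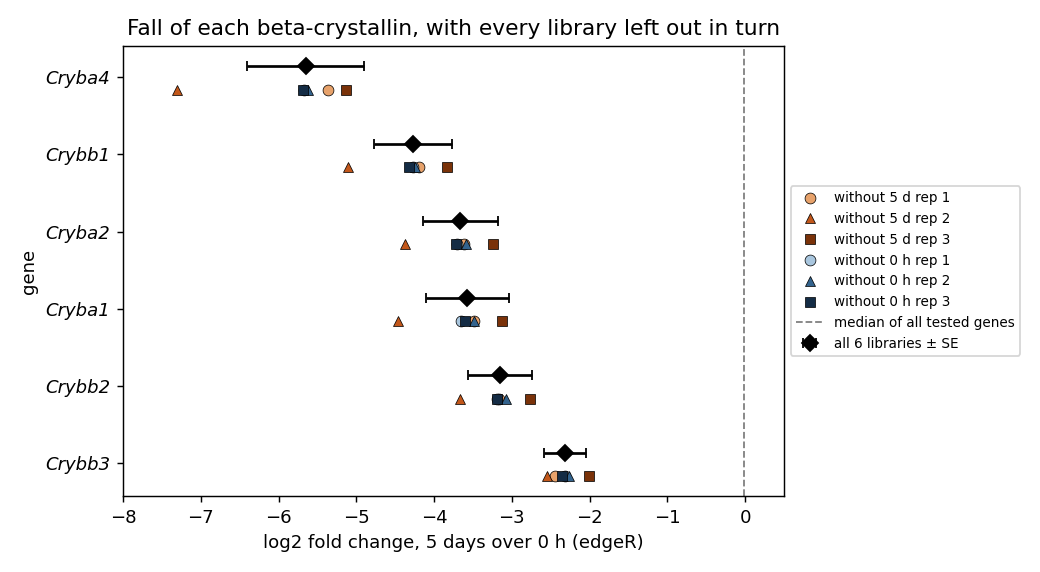
log2 fold change of 5 days over 0 h for each β-crystallin (black diamond, with its standard error) and the value after each of the 6 libraries was left out (coloured points); the dashed line is the median of all tested genes at -0.01. Without replicate 2 of the 5 day group Cryba4 moved to -7.30, and the order of the largest and smallest falls stayed as with all 6 libraries.

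The members differed far more among 5 day libraries than among 0 h libraries. The ratio of highest to lowest 5 day library was 17.8 for Cryba4, 7.99 for Cryba1, 6.88 for Crybb1, 6.00 for Cryba2, 4.33 for Crybb2 and 2.52 for Crybb3, and at 0 h it was 1.08 to 1.23 for all 6. The SD of log2 CPM was 0.73 to 2.06 at 5 days, where the median over all tested genes was 0.22, and 0.06 to 0.15 at 0 h, where that median was 0.18. Replicate 2 was the highest and replicate 3 the lowest 5 day library for 6 of 6 members, an arrangement found in 19.3% of all tested genes. As a share of all gene counts the 6 members held 0.810% (exact binomial 95% interval 0.803 to 0.817), 1.38% (1.372 to 1.389) and 0.308% (0.304 to 0.312) in the 5 day libraries. At 0 h they held 6.89% (6.874 to 6.910), 7.68% (7.661 to 7.694) and 6.87% (6.850 to 6.884). The intervals cover counting error only and are narrow beside the spread between 5 day libraries.

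To compare genes with each other, CPM was divided by gene length, taken as the union of annotated exons in kb. At 5 days Crybb2 led with 2987 ± 1854 CPM per kb (SD, n = 3), 7.05-fold above the next gene. Behind it came Cryba2 with 424 ± 317, Cryba1 with 404 ± 343, Crybb3 with 291 ± 123, Crybb1 with 94.8 ± 76.3 and Cryba4 with 62.8 ± 73.9 CPM per kb. All neighbours below Crybb2 overlapped in their 5 day ranges. Within libraries, Crybb3 was above Crybb1 and Crybb1 above Cryba4 in 3 of 3. At 0 h Crybb2 led again, with 26430.1 ± 2240.4 CPM per kb. Cryba2 with 5369 ± 518 and Cryba1 with 4816 ± 514 CPM per kb followed, with library ranges that overlapped, although Cryba2 was above Cryba1 in 3 of 3 libraries. Cryba4 had 3152 ± 134, Crybb1 1829 ± 105 and Crybb3 1442 ± 95.0 CPM per kb, each without overlap with its neighbours in the order. Cryba4 thus held rank 6 at 5 days, against rank 4 at 0 h, and Crybb3 held rank 4 at 5 days, against rank 6 at 0 h.

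The lower ranks depended on the length used. For Crybb3, Cryba1 and Cryba2 the longest annotated transcript, of 1419, 1377 and 923 bases, was longer than the longest protein-coding transcript. For Crybb2 the union of exons, 2012 bases, was far longer than its longest transcript of 906 bases. Its lead over the next gene at 5 days was 8.01 to 12.1-fold under the other lengths. With the longest protein-coding transcript, chosen after values were seen (778, 720, 808, 882, 906 and 892 bases for Cryba1, Cryba2, Cryba4, Crybb1, Crybb2 and Crybb3), the order at 5 days was Crybb2, Cryba1, Crybb3, Cryba2, Crybb1 and Cryba4. At 0 h it was then Crybb2, Cryba1, Cryba2, Crybb3, Cryba4 and Crybb1. Crybb2 was first and Cryba4 last at 5 days under each of the 5 lengths tried, undivided CPM included. At 0 h Crybb2 was first under each of them, while Crybb1 was last under 4 and Crybb3 under the union of exons.

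The acidic share of the family was lower at 5 days. Per kb of exon, Cryba1, Cryba2 and Cryba4 together made up 18.1%, 23.8% and 15.2% of the summed β-crystallin level in the 5 day libraries, against 30.6%, 31.1% and 31.2% in the 0 h libraries. The groups did not overlap, and at 5 days replicate 3, with the least β-crystallin, had the lowest share and replicate 2 the highest. The mean was 19.0 ± 4.38% at 5 days and 31.0 ± 0.321% at 0 h (SD, n = 3 each). Under the other lengths the means were 11.8 to 16.0% at 5 days and 20.0 to 25.4% at 0 h, and the groups did not overlap under any of the 5.

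Cryba4 made up 1.14 ± 0.826% of the family at 5 days and 7.34 ± 0.286% at 0 h. Leaving it out of both sums, a choice made after values were seen, gave acidic shares of 17.5%, 22.2% and 14.7% at 5 days, against 25.0%, 25.9% and 25.7% at 0 h, still without overlap. Cryba1 and Cryba2 each fell more than Crybb2, which dominates the basic sum, and less than Crybb1. Crybb2 made up 71.1 ± 2.52% at 5 days and 61.4 ± 0.153% at 0 h, and Crybb3 7.80 ± 2.28% at 5 days and 3.35 ± 0.137% at 0 h. Crybb1 moved the other way from these basic members, with 2.05 ± 0.414% at 5 days and 4.26 ± 0.216% at 0 h. Under the other lengths the mean share of Crybb2 was 73.5 to 80.5% at 5 days and 67.8 to 74.4% at 0 h. No p is given for these sums over chosen genes.

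**Figure D3:**
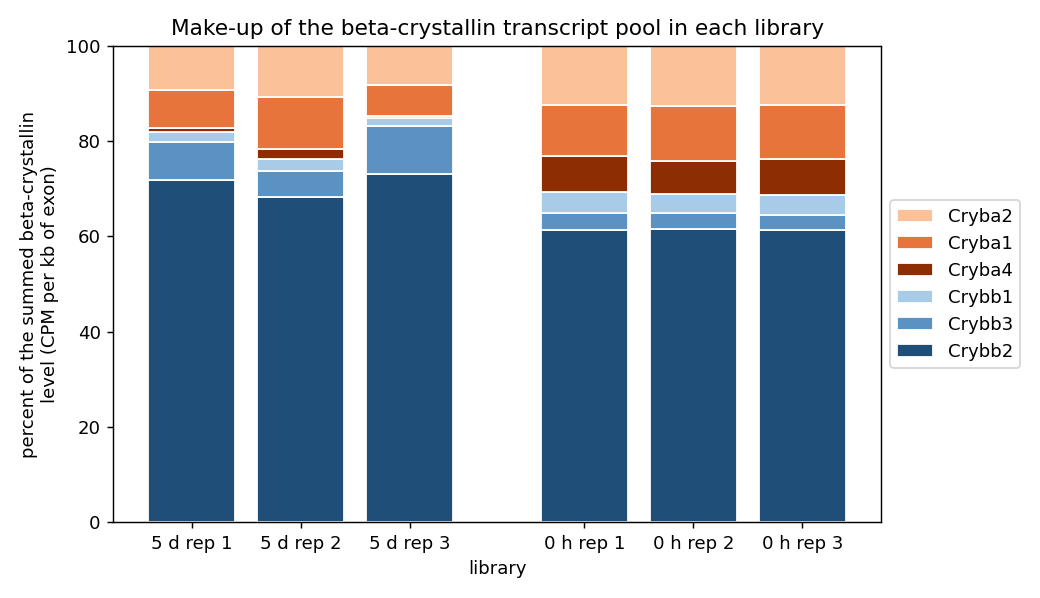
Stacked bars of each member's percent of the summed β-crystallin level (CPM per kb of exon) in each library, 5 days left and 0 h right, with acidic members in orange tones above basic members in blue tones. Crybb2 is 68.3 to 73.2% at 5 days and 61.3 to 61.6% at 0 h, and Cryba4 is 0.541 to 2.08% at 5 days and 7.01 to 7.52% at 0 h.

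**Figure D4:**
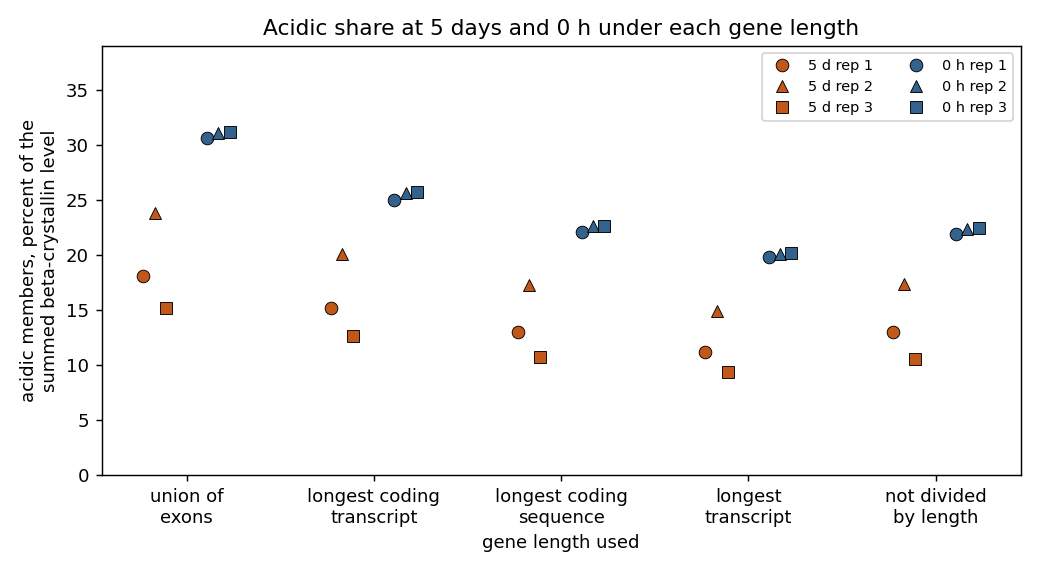
Percent of the summed β-crystallin level held by Cryba1, Cryba2 and Cryba4 in each library (5 days left, 0 h right; marker shape gives the replicate) under 5 choices of gene length. The level of the share changes with the length, and the 3 libraries at 5 days lie below the 3 at 0 h under each choice.

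Ratios between members within a library do not depend on scaling or on gene length when the times are compared. The log2 ratio of Cryba1 to Cryba2 was 0.23, 0.45 and 0.04 at 5 days, against 0.20, 0.27 and 0.31 at 0 h. The ranges overlapped, and the means differed by -0.02, so these 2 genes fell in step to within the spread of the libraries. The log2 ratio of Cryba4 to Crybb3 was -4.84, -2.85 and -5.67 at 5 days, against -0.38, -0.37 and -0.29 at 0 h. This difference of -4.11 was the largest among the 15 pairs.

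The ratio of Crybb1 to Crybb2, both basic, was -6.23, -5.80 and -6.47 at 5 days, against -4.80, -4.95 and -4.90 at 0 h. The ratio of Cryba4 to Cryba2, both acidic, can be read from Cryba2 to Cryba4, which was 4.06, 2.87 and 4.44 at 5 days, against 1.24, 1.36 and 1.23 at 0 h. Members of 1 class thus diverged from each other as did members of different classes. Of the 15 pairs, 14 had ratios that did not overlap between the times, where 49.7% of all pairs of genes called lower had that arrangement. The 15 pairs share 6 genes and 6 libraries and are not independent.

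Cryba1 was closest in profile to Cryba2, with a root mean square difference of 0.12 between their centred log2 CPM over the 6 libraries. Crybb1 came next for both, at 0.33 and 0.34. Crybb2 was closest to Cryba2 (0.34), and Crybb3 to Crybb2 (0.53). Cryba4 stood farthest from the family's mean profile, at 1.25, with Crybb1 as its closest member at 1.01.

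By position, 4 of the 6 genes lie on chromosome 5 in 2 neighbouring pairs (GENCODE M21, build GRCm38). Cryba4 (chr5:112246493-112252518, minus strand) and Crybb1 (chr5:112255815-112269585, plus strand) run away from each other with 3.30 kb between them, and they had the 2 largest falls. Crybb2 (chr5:113058258-113070117) and Crybb3 (chr5:113075839-113081584), both on the minus strand with 5.72 kb between them, had the 2 smallest falls. The pairs are 789 kb apart with 10 protein-coding genes between them. Cryba1 (chr11:77718615-77725283) and Cryba2 (chr1:74889934-74893143), which fell in step, are on different chromosomes. With 2 pairs no relation between position and fall can be tested. The mRNAs of the 6 members are 63.7 to 69.9% identical in pairwise alignments, share runs of at most 20 bases, and hold 0 windows of 50 bases found in another gene. The exons of the 6 genes overlap those of 0 other genes in the annotation.

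Other crystallins fell as well, by less or by more than the β-crystallins. Both α-crystallins, the small heat shock proteins of the lens, were lower, and 2 of 2 were called. Cryaa fell by 2.48 (SE 0.34, edgeR adjusted p = 7.65e-05), and Cryab fell by 2.66 (SE 0.34, edgeR adjusted p = 4.16e-05). Their falls were smaller than those of 5 β-crystallins and larger than that of Crybb3. Counts of β-crystallins were 32.6%, 37.5% and 30.4% of all crystallin counts at 5 days, against 46.2%, 45.2% and 45.7% at 0 h, without overlap.

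Of the γ-crystallins, compact monomers typical of fiber cells, 8 were listed, 7 passed the filter on low counts and 7 were called lower, where 22.5% of all tested genes were. Crygb, Crygc, Crygd, Cryge and Crygf passed the filter through the 0 h group alone, so they could be called lower but not higher. Crygs, which is also made in the adult lens cortex, was the one most like the β-crystallins, with 687, 1153 and 225 CPM at 5 days, against 5185, 5995 and 5462 CPM at 0 h, and fell by 3.01 (SE 0.43, edgeR adjusted p = 0.000100). Crygn fell by 5.24 (SE 0.22, edgeR adjusted p = 6.52e-09). The clustered genes were at or near 0 at 5 days. Crygb, Cryge and Crygf had 0 counts over the 3 libraries, against 12137, 173 and 359 counts at 0 h, which is at least 3920.4-fold, 54.1-fold and 117-fold lower if a total of 3 counts is taken as the floor of the group. Crygc had 9 counts at 5 days, against 14037 at 0 h, Crygd 2 counts, against 12744, and the untested Cryga 0 counts, against 27. These clustered γ-crystallin genes are close copies, so how reads divide among them is uncertain. The median log2 fold change of the 7 was -9.91 as fitted and -6.87 with the 3 genes without counts at their bounds. No β-crystallin came near 0, the lowest being Cryba4 with 63 reads in replicate 3.

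Proteins that carry β/γ-crystallin domains outside the lens crystallin family did not share one direction. Crybg1, first named for its absence in melanoma, rose by 1.14 (SE 0.16, edgeR adjusted p = 7.34e-05), with 82.9, 85.4 and 55.2 CPM at 5 days, against 34.5, 32.8 and 34.1 CPM at 0 h. Crybg3 fell by 1.59 (SE 0.11, edgeR adjusted p = 2.65e-07), and Crybg2 was below the filter, with 3 counts in all.

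Among 24 transcription factors and cofactors known to act on crystallin genes, 23 were tested, of which 10 were called lower and 3 higher, where 22.5% of all tested genes were called lower and 25.1% higher. Their median log2 fold change was -0.31, against -0.01 over all tested genes. Hsf4, the heat shock factor of the differentiating lens, fell most, by 3.51 (SE 0.23, edgeR adjusted p = 1.64e-07), with 1.75, 3.27 and 2.96 CPM at 5 days, against 35.2, 27.3 and 30.5 CPM at 0 h. Maf, which binds the Maf recognition elements of crystallin promoters, fell by 1.17 (SE 0.14, edgeR adjusted p = 2.46e-05), with 345, 358 and 245 CPM at 5 days, against 696, 730.4 and 701 CPM at 0 h. Prox1 and Sox1, both needed for fiber cell differentiation, fell by 1.22 and 1.54 (edgeR adjusted p = 0.000222 and 0.000108). Pitx3, Foxe3, Gata3, Mafg, Meis2 and Tfap2a also fell, by 0.44 to 1.68. Factors named here other than those of largest change and highest level were chosen after their values were seen.

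Pax6, the called factor with the highest mean log2 CPM (not per length) and a regulator of lens identity that can activate or repress crystallin genes, had 806, 837 and 729 CPM at 5 days, against 694, 631 and 629.8 CPM at 0 h. The groups did not overlap, and Pax6 was called higher by 0.28 (SE 0.11, edgeR adjusted p = 0.0483), just inside the threshold. The call was made in 6 of 15 other settings, with adjusted p of 0.00774 to 0.175 over the 15, and was lost when replicate 1 or 2 at 5 days or any of the 3 libraries at 0 h was left out. Fos and Jun, the components of AP-1, rose by 1.83 and 1.10 (edgeR adjusted p = 0.000949 and 0.00142), and both were highest in replicate 3 at 5 days, the library with the least β-crystallin. Six3 (0.01), Sox2 (-0.15), Crebbp (-0.02) and Ep300 (-0.00) did not pass the test. The factors called higher numbered 2 to 5 over the 15 other settings. They numbered 5 with limma-voom and with each of the 3 other scalings (DESeq2 size factors, total library size, or TMM computed after crystallin, mitochondrial and rRNA genes were set aside). They numbered 2 with a filter of at least 2 CPM in 3 libraries and without replicate 1 or 2 of either time. Fos and Jun were called in 15 of 15.

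Other genes of lens fiber cells were lower in 16 of 16 tested members of a list of 17, with a median log2 fold change of -3.20 against -0.01 over all tested genes (Lim2 was not analysed here). Of all tested genes, 22.5% were called lower. Birc7, Dnase2b and Clic5 passed the filter on low counts through the 0 h group alone, so they could be called lower but not higher. Birc7 had 0 counts at 5 days, against 301 at 0 h, which is at least 98.7-fold lower. Bfsp1, a beaded filament protein of fiber cells, fell by 5.12, an example chosen after its value was seen. Mip, the aquaporin of fiber cell membranes, fell by 3.55.

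Profiles were ranked over 9596 other genes whose mean log2 CPM reached 3. Among the 8 profiles closest to the mean β-crystallin profile over the 6 libraries were those of Palm2, Mip, Lctl, Crygs, Fabp5 and Smco3. The root mean square difference was 0.18 for Palm2, a paralemmin of the plasma membrane, and 0.20 for Mip, so that both lay closer to the family's mean than Crybb1 (0.25), Crybb2 (0.42), Crybb3 (0.96) or Cryba4 (1.25). It was 0.42 for Lctl, a klotho-related protein of the lens, and 0.45 for Crygs, for Fabp5, a fatty acid binding protein, and for Smco3. Palm2 had 2.55, 6.40 and 0.985 CPM at 5 days, against 43.4, 46.5 and 39.3 CPM at 0 h, and Mip had 190.2, 415 and 68.1 CPM at 5 days, against 3028, 2694 and 2176 CPM at 0 h. As in the β-crystallins, replicate 2 was highest and replicate 3 lowest at 5 days in both. Both genes were picked for closeness over these same libraries, so this shared order is no separate likeness. Cryab ranked 39, Crygn 44 and Cryaa 60, and Crygb ranked 9171, since it fell far more than the β-crystallins. The likeness describes 6 libraries in 2 groups and is dominated by the difference between the times.

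**Figure D5:**
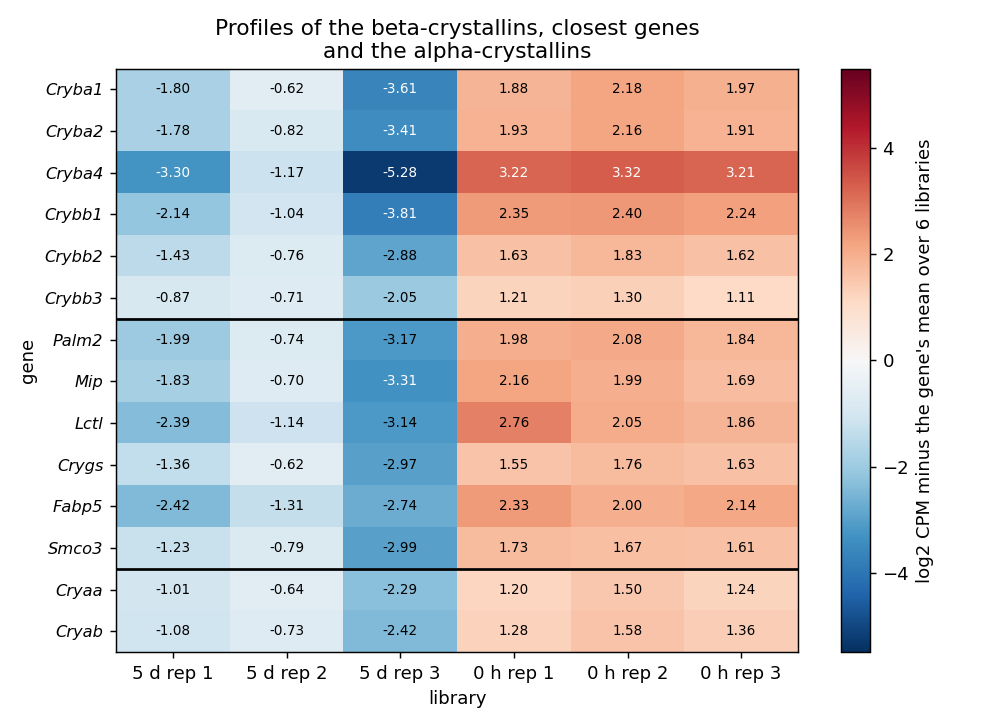
log2 CPM minus each gene's mean over the 6 libraries (colour and printed value) for the 6 β-crystallins, 6 of the 8 genes of closest profile and the 2 α-crystallins, 5 days left and 0 h right. Replicate 3 at 5 days is the lowest library in each row, and Cryba4 there reaches -5.28.

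The depth was 6207387, 7509954 and 8682659 gene counts in the 5 day libraries, against 7709815, 9774343 and 8707928 at 0 h. Of all tested genes, 25.1% were called higher and 22.5% lower, and the counts of markers below are to be read beside these shares. Markers of lens epithelium were detected in all libraries in 11 of 11 cases, with 2 called higher and 7 lower at 5 days. The 2 higher calls, Pax6 and Epha2, became 0 to 2 over the 15 other settings, and 0 without replicate 1 at 5 days, replicate 2 at 0 h or replicate 3 at 0 h. The markers' summed level was 3245 to 6716 CPM at 5 days, against 21631 to 25952 CPM at 0 h, most of which at 0 h was Cryab. Without Cryab the other 10 markers summed to 2088, 2262 and 1869.7 CPM at 5 days, against 3707, 3921 and 4155 CPM at 0 h, a sum formed after values were seen. Markers of other cells moved with the time too. Those of photoreceptors and retina were lower in 12 of 12, with summed levels of 76.4, 48.9 and 131 CPM at 5 days, against 686, 619.8 and 925 CPM at 0 h. At 5 days this sum was highest in replicate 3 and lowest in replicate 2, the reverse of the β-crystallins. Some β-crystallin genes are known to be expressed in the retina at low level. Markers of macrophages and leukocytes were higher in 10 of 10, with summed levels of 523 to 744 CPM at 5 days, against 17.7 to 35.8 CPM at 0 h. Krt5 and Krt14, keratins of surface epithelium, reached 19.9 and 45.8 CPM in replicate 3 at 5 days and at most 0.318 CPM in the other libraries. Of the 7 corneal markers, 3 were tested, with 2 called higher and 1 lower. Lum averaged 7.21 ± 2.23 CPM at 5 days and 0.269 ± 0.467 CPM at 0 h, Dcn 22.9 ± 12.5 CPM at 5 days and 2.10 ± 3.05 CPM at 0 h, and Aldh3a1 484 ± 147 CPM at 5 days and 915 ± 143 CPM at 0 h (SD, n = 3 each). Kera was at 0 in all libraries, and Krt12 was at no more than 1.75 CPM. Endothelial markers were higher in 2 of 3 tested, with sums of 16.3 to 35.4 CPM at 5 days, against 2.83 to 9.42 CPM at 0 h. Red cell markers summed to at most 1.76 CPM. Pigment cell markers summed to 12.6 to 40.0 CPM at 5 days, against 18.3 to 45.9 CPM at 0 h, with 1 of 5 tested called lower (Rpe65, at 0 counts at 5 days). Rpe65 passed the filter on low counts through the 0 h group alone and could not be called higher. Some markers called higher, such as Lum, Pecam1 and Ptprc, passed it through the 5 day group alone and could not be called lower. The part of these cells in the fall of the β-crystallins was not tested.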

How the data were processed

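Raw read counts per Ensembl gene were deposited by the authors for 6 libraries. Per the submitters' processing notes, HISAT2, HTSeq and edgeR were used on build GRCm39; versions, annotation and strand setting: not given in the sources used here. Per the labels' protocols, total RNA was made into libraries with a stranded low-input kit. Summary entries that name no gene, 32.26 to 42.55% of reads, were left out. Symbols (91.23% of identifiers) and exon lengths came from GENCODE M21 on GRCm38, so lengths may differ from those counted. Promoter windows came from a RefSeq table on GRCm38.p6.

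Counts were filtered and TMM-scaled with the defaults of edgeR 4.0.16 (R 4.3.3) and tested over all 6 libraries with glmQLFit and glmQLFTest, Benjamini-Hochberg adjusted over 14676 genes. The SE is the log2 fold change divided by the root of F. The common biological coefficient of variation was 0.156. Alternatives used DESeq2 1.42.0 and limma 3.58.1, other scalings and filters, blocks by replicate number and each library left out. Libraries of the same title number did not deviate together (correlations 0.039, -0.09 and 0.043). The numbers in the library names differ from the title numbers at 5 days, and no correlation was computed for them. The labels do not say whether numbers pair pools, so a pairing of pools was neither shown nor excluded. P-values measure the spread between 3 pools per time.

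Named genes were the members, all α- and γ-crystallins and β/γ domain genes, of each other list the called genes of largest rise, largest fall and highest level, and the 8 closest profiles (log2 CPM with a prior count of 2). Members and lists were chosen with earlier results of these data known. Some genes that fall under this rule are not reported here, and not every marker gene is printed. Figures were drawn with Python 3.11.15 and matplotlib 3.10.9.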

Additional observations from a re-analysis of the deposited data

How the results depend on the processing

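All 6 β-crystallins were called lower in each of 15 other settings, with adjusted p of at most 0.00204. Without the low-count filter their SEs were far smaller than in the main fit, so the calls of that setting add little. Outside the settings that left out a library, log2 fold changes were -4.03 to -3.14 for Cryba1, -4.01 to -3.22 for Cryba2, -6.59 to -5.36 for Cryba4, -4.70 to -3.87 for Crybb1, -3.38 to -2.72 for Crybb2 and -2.42 to -1.95 for Crybb3. The smallest falls in these ranges all came from the replicate block by library name number. Apart from it they came with total library size, at -3.44, -3.53, -5.51, -4.14, -3.01 and -2.18 in the same order of genes. A replicate block by title number gave -3.99, -3.98, -6.36, -4.62, -3.37 and -2.41 for Cryba1, Cryba2, Cryba4, Crybb1, Crybb2 and Crybb3 and changed no call among them, and a replicate block by library name number gave -3.14, -3.22, -5.36, -3.87, -2.72 and -1.95. The numbers in the library names differ from the title numbers at 5 days. By name, replicate 3 at 5 days and replicate 2 at 0 h had no partner. These 2 libraries therefore did not inform the fold changes of that block. Total library size in place of TMM shifted log2 fold changes by a median of 0.13 and made 62.9% of all calls higher, against 52.7% with TMM. The count of crystallin regulators called higher (3) was 5 with limma-voom and with each of the 3 other scalings, and 2 with the filter of 2 CPM and in 4 of the 6 settings that left out a library. The acidic share at 5 days (19.0%) was 11.8% with the longest transcript, 13.7% undivided and 13.7% with the longest coding sequence. At 0 h (31.0%) it was 20.0% with the longest transcript, 22.3% undivided, 25.4% with the longest protein-coding transcript, 22.4% with the longest coding sequence and 25.5% without Cryba4. The share of counts was 33.5% at 5 days and 45.7% at 0 h with all crystallin counts as the denominator. With the longest protein-coding transcript 3 members kept their rank at 5 days, and 1 did at 0 h, where 1 also did with the coding sequence or undivided levels. The 2 protein-coding lengths, the share without Cryba4 and the epithelial sum without Cryab were chosen after seeing the data, and lengths from a protein table were not run.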
